A study of Mus musculus with 18 samples.

Results

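The proteasome is the multi-subunit protease that degrades ubiquitin-tagged proteins, and the transcripts of its subunits were followed here through the first 2 days of myoblast differentiation. Members were all protein-coding mouse genes whose symbol starts with Psma, Psmb, Psmc, Psmd, Psme or Psmg, which gave 49 genes in the GENCODE M21 annotation (build GRCm38). Of these, 48 had a row among the 19153 genes of each processed file, and the testis subunit gene Psma8 was not listed. The members comprised 7 alpha subunits and 7 constitutive beta subunits of the 20S core, 4 immunoproteasome or thymoproteasome beta subunits, 6 ATPases and 11 non-ATPases of the 19S regulatory particle, 3 assembly chaperones of the 19S and 4 of the 20S particle, 5 genes of activator families, and Psmc3ip, a meiotic recombination factor that is no proteasome subunit.

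The 18 RNA-seq libraries came from immortalized myoblasts of a p53 knockout mouse, a cell line that can form myotubes. LAP2α knockout cells (KO) had been made with Cas9 and a guide RNA against the LAP2α isoform of Tmpo, and wildtype cells (WT) had received the Cas9 vector without a guide. All 6 groups thus lacked p53, and they differed in genotype and in state. Both lines were sorted pools of cells and not single clones. Other differences between these lines cannot be told apart from the loss of LAP2α. Cells were harvested while proliferating below confluence in 20% serum (Prol), at confluence in 20% serum on day 0 (D0), or 48 hours after the switch to 5% serum on day 2 (D2), with 3 replicates in each of the 6 groups. The labels do not say that replicates were separate cultures, so p-values measure the spread between these libraries, which may in part be technical.

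The 26S proteasome consists of a 20S core barrel, whose alpha rings gate the entrance and whose beta rings carry the proteolytic sites, capped by a 19S particle that recognises ubiquitin chains, removes them and unfolds the substrate with a ring of ATPases. In cells exposed to interferon, the catalytic subunits encoded by Psmb5, Psmb6 and Psmb7 are replaced by those of Psmb8, Psmb9 and Psmb10, and the PA28 activator formed by the products of Psme1 and Psme2 can take the place of the 19S cap. Muscle relies on the proteasome for protein turnover, and myogenic differentiation requires the removal of cell cycle and inhibitory proteins.

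The library totals ranged from 26437823 to 41619016 expected counts, so that 3 counts corresponded to 0.0651 to 0.119 CPM (expected counts scaled to the library total), and counting error was small for all members except those below a few CPM. As a check of the labelled states, summed CPM of 6 differentiation genes (among them Myog and Myh3) ranged from 2.36 to 27.0 in the 12 Prol and D0 libraries and from 1401 to 4793 in the 6 D2 libraries, whereas 5 proliferation genes summed to 1300 to 2091 CPM in the former and to 256 to 445 CPM in the latter. The differentiation sum differed by genotype at D2, without overlap: 2357 to 4793 CPM in WT and 1401 to 1755 CPM in KO libraries. WT and KO D2 are thus not the same extent of differentiation by these genes. The part of this difference in the D2 results was not tested. The myoblast markers Myod1, Myf5, Des, Cdh15 and Chrna1 were each present at a mean of at least 1 CPM in every group, and Pax7 was not listed. Several were low in WT Prol and higher in WT D2: Myod1 (2.59 and 88.9 CPM), Des (3.44 and 173), Cdh15 (1.92 and 127) and Chrna1 (10.9 and 244). Myf5 had 24.5 and 17.6 CPM. The leukocyte markers Cd68 and Csf1r passed the same limit in every group (1.91 and 3.33 CPM in WT Prol), so it does not set the myoblast markers apart. Summed fibroblast markers (5 genes, including Dcn and Col1a1) ranged from 289 to 4139 CPM in Prol and D0 and from 1919 to 13759 CPM at D2, while the highest sum in a library was 8.004 CPM for the listed leukocyte markers, 2.29 CPM for the endothelial and 0.991 CPM for the adipocyte markers, and Ptprc, Adgre1, Cdh5 and Adipoq were not listed. The fibroblast marker sum, which was mostly Col1a1, thus moved with the D2 state in which subunit transcripts differed. The part of these markers in the results was not tested. Total Tmpo, which pools LAP2α with the isoforms left intact and so does not check the knockout, had a mean of 299.7 ± 21.8 CPM (SD, n = 3) in WT Prol and 246 ± 16.6 CPM in KO Prol. In such bulk libraries, fewer cells of a type and less RNA per cell cannot be told apart.

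Before any comparison between groups, libraries of the same replicate number stood together. The summed CPM of the 7 alpha subunits was lowest in replicate 1 and highest in replicate 2 in each of the 6 groups. In WT Prol the 3 sums were 1403, 2592 and 2061 CPM, in KO Prol 1345, 2361 and 1928 CPM, in WT D0 1106, 3235 and 2360 CPM and in KO D0 1287, 3139 and 2136 CPM. At D2 they were 915, 2026 and 1577 CPM in WT and 734, 1491 and 1458 CPM in KO cells. The spread between replicate numbers was therefore as large as the distance between states for the alpha ring, whereas the 11 non-ATPases did not share this order (2510, 2353 and 2597 CPM in WT Prol, 1948, 1613 and 1434 CPM in WT D2). The fibroblast marker sum was highest in replicate 1 in all 6 groups, the number in which the alpha sum was lowest. It was 12463, 1919 and 2487 CPM in WT D2, 13759, 4047 and 3313 CPM in KO D2 and 4139, 289 and 389 CPM in WT D0. Col1a1 made up most of this sum (12263, 1797 and 2351 CPM in WT D2). Pdgfra and Dcn were also highest in replicate 1 of WT D2. Lum (2.48, 3.87 and 2.71 CPM) and Thy1 (0.283, 1.02 and 1.99 CPM) were lowest there. The part of the marker sum in the order of the replicates was not tested. Within a library, the log2 ratio of summed 19S subunits (ATPases and non-ATPases) to summed 20S ring subunits lay between 0.34 and 0.48 in the replicate 1 libraries of all 6 groups and between -0.63 and -0.15 in the replicate 2 libraries.

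**Figure D1:**
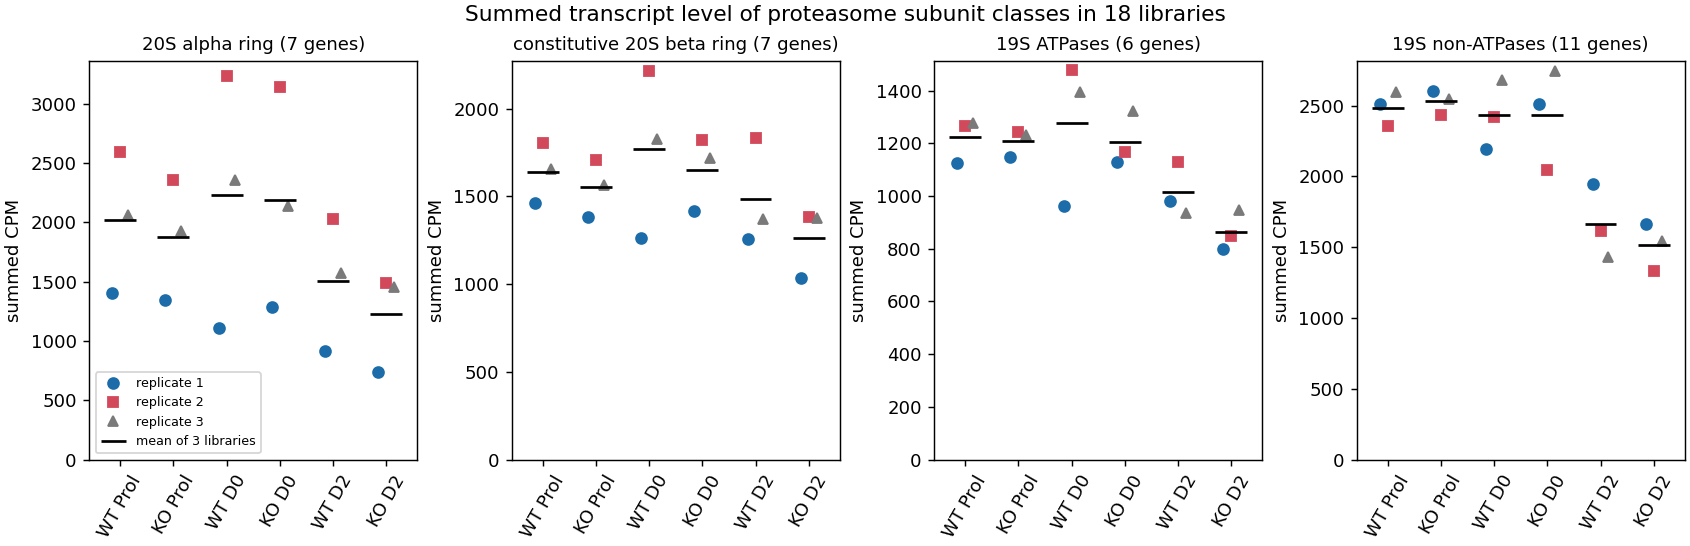
Summed CPM (y axis, from 0) of the alpha ring, the constitutive beta ring, the 19S ATPases and the 19S non-ATPases in each of the 18 libraries (points, coloured by replicate number) with the mean of each group of 3 (line). The alpha ring sum was lowest in replicate 1 and highest in replicate 2 in all 6 groups, and the non-ATPase sums of the 6 D2 libraries, from 1333 to 1948 CPM, all lie below those of the 12 other libraries.

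The difference between replicate 2 and replicate 1, averaged over the 6 groups, also went with annotated transcript length across the 9188 genes with a mean of at least 10 CPM: its median was 0.83 on the log2 scale for transcripts up to 800 nt, 0.25 for those of 1200 to 1600 nt, -0.27 for those of 3000 to 4000 nt and -0.72 above 6000 nt. Genes of 1 library share its depth and base composition, so these medians are descriptive. Among members, the difference was 1.24 for Psma7 (914 nt) and 1.57 for Psmg4 (555 nt), and it was -0.90 for Psmd2 (2961 nt) and -1.002 for Psme4 (6491 nt). The alpha subunits lay above the median of their length ranges (by 0.73 in the median of the 7), and Psma3 had a difference of 1.47 at an annotated 2846 nt. Over the same length ranges, the median D2/Prol difference of all genes varied less: its lowest and highest values were -0.19 and -0.06 for WT, and -0.25 and -0.04 for KO. The part of this pattern in the results below was not tested beyond the fit with replicate number as a block.

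**Figure D2:**
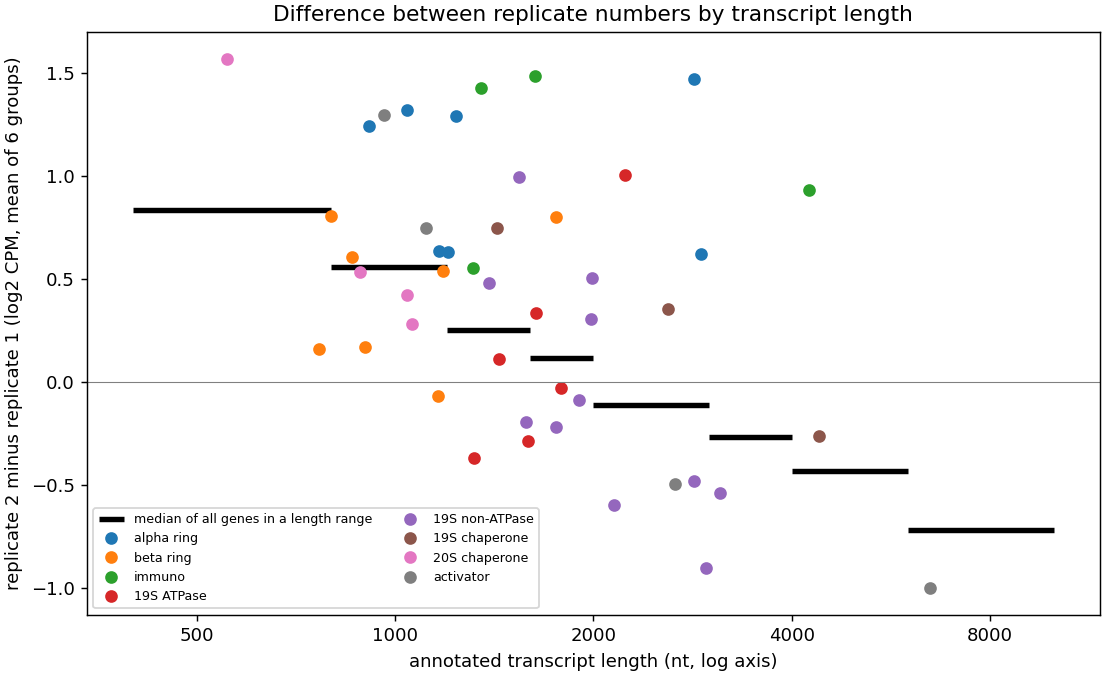
Difference between replicate 2 and replicate 1 (log2 CPM, mean of the 6 groups, y axis) against annotated transcript length (nt, log x axis) for 46 members (all but Psme2b and Psmc3ip), coloured by class. Black bars give the median of all genes with a mean of at least 10 CPM in each length range (the first and last range are open and their bars end inside the plot): they run from 0.83 for the shortest to -0.72 for the longest transcripts, and Psme4, the longest member, lies at -1.002.

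Of the 48 members, 38 had a D2/Prol value below 0 in WT and 40 in KO cells, where 50.6% and 48.7% of all genes did. In WT cells, 12 of the 48 members were called lower and 0 higher (limma, Benjamini-Hochberg adjusted p under 0.05 over 17672 genes), where 14.1% of all genes were called lower and 16.6% higher. In KO cells, 19 members were called lower and 0 higher, against 15.2% and 17.1% of all genes. Fold changes of single genes are given as log2 fold change ± standard error, from 3 libraries a group. The 12 WT calls were Psmd11, Psmd12, Psmd7, Psmb3, Psmc1, Psmc2, Psmc4, Psmc5, Psmd5, Psmg2, Psme3 and Psmc3ip, and all of them were among the 19 KO calls, which added Psma1, Psmb7, Psmd1, Psmd3, Psmd4, Psmg1 and Psmg3. Each comparison has its own WT or KO control libraries, but the genotypes share their replicate numbers. The median log2 fold change of the 48 members was -0.40 in WT and -0.58 in KO cells, where the median of all 17672 genes was -0.01 and 0.02, and that of the 9488 genes with a mean of at least 10 CPM was -0.14 in both, with 57.7% of these below 0. All 48 passed the filter on low counts (more than 5 expected counts in each library of a group), Psmb9 and Psme2b only through a D2 group. The 3 D2 libraries lay below the 3 Prol libraries for 18 members in WT (20.5% of all genes) and 28 members in KO cells (22.6%), and above them for 0 (23%) and 2 members (25.1%), the latter being the barely detected Psmb9 and Psme2b. With the replicate number as a block (same-numbered KO D2 and Prol libraries correlated at 0.20 to 0.36 in their deviations from the group means), 31 members were lower and 3 higher in KO cells (Psme1, Psme2 and the barely detected Psme2b), where the same fit called 23.9% of all genes lower and 24.6% higher. Scaling by library totals alone moved the median of all genes up by 0.16 in WT and by 0.13 in KO cells and left 6 WT calls and 16 KO calls, all lower, where 11% and 12.7% of all genes were called lower. With only the compared groups in the fit, the WT count was 7. Leaving out 1 library took the WT count to between 4 (without WT D2 replicate 3 or WT Prol replicate 3) and 14 (without WT D2 replicate 1), with 6 without WT D2 replicate 2, and the KO count to between 13 and 17.

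Against confluent cells (D2/D0), 41 of the 48 members had a value below 0 in WT and 42 in KO cells, where 49.9% and 47.4% of all genes did. Of the genes with a mean of at least 10 CPM, 54.5% and 56.5% were below 0. In WT cells 5 members were called lower (Psmc3ip, Psmd7, Psmd12, Psmc4 and Psmc1) and 0 higher, where 11.3% of all genes were lower and 14.7% higher, so that the share of members called did not exceed that of all genes. In KO cells 17 members were lower and 0 higher, where 12.9% of all genes were lower and 15.3% higher. With the replicate block, 35 members were lower in KO cells and 0 higher, against 22.4% and 23.6% of all genes. With only the compared groups in the fit, 0 members were called in WT and 3 in KO cells. D2/Prol and D2/D0 share their D2 libraries and are not independent. Without single libraries the WT D2/D0 count was 15 (without WT D0 replicate 1), 9 (without WT D2 replicate 1) or 3 (without WT D0 replicate 2, WT D0 replicate 3 or WT D2 replicate 3), and the KO count was 6 without KO D0 replicate 3, 9 without KO D2 replicate 2 and 10 without KO D2 replicate 3.

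**Figure D3:**
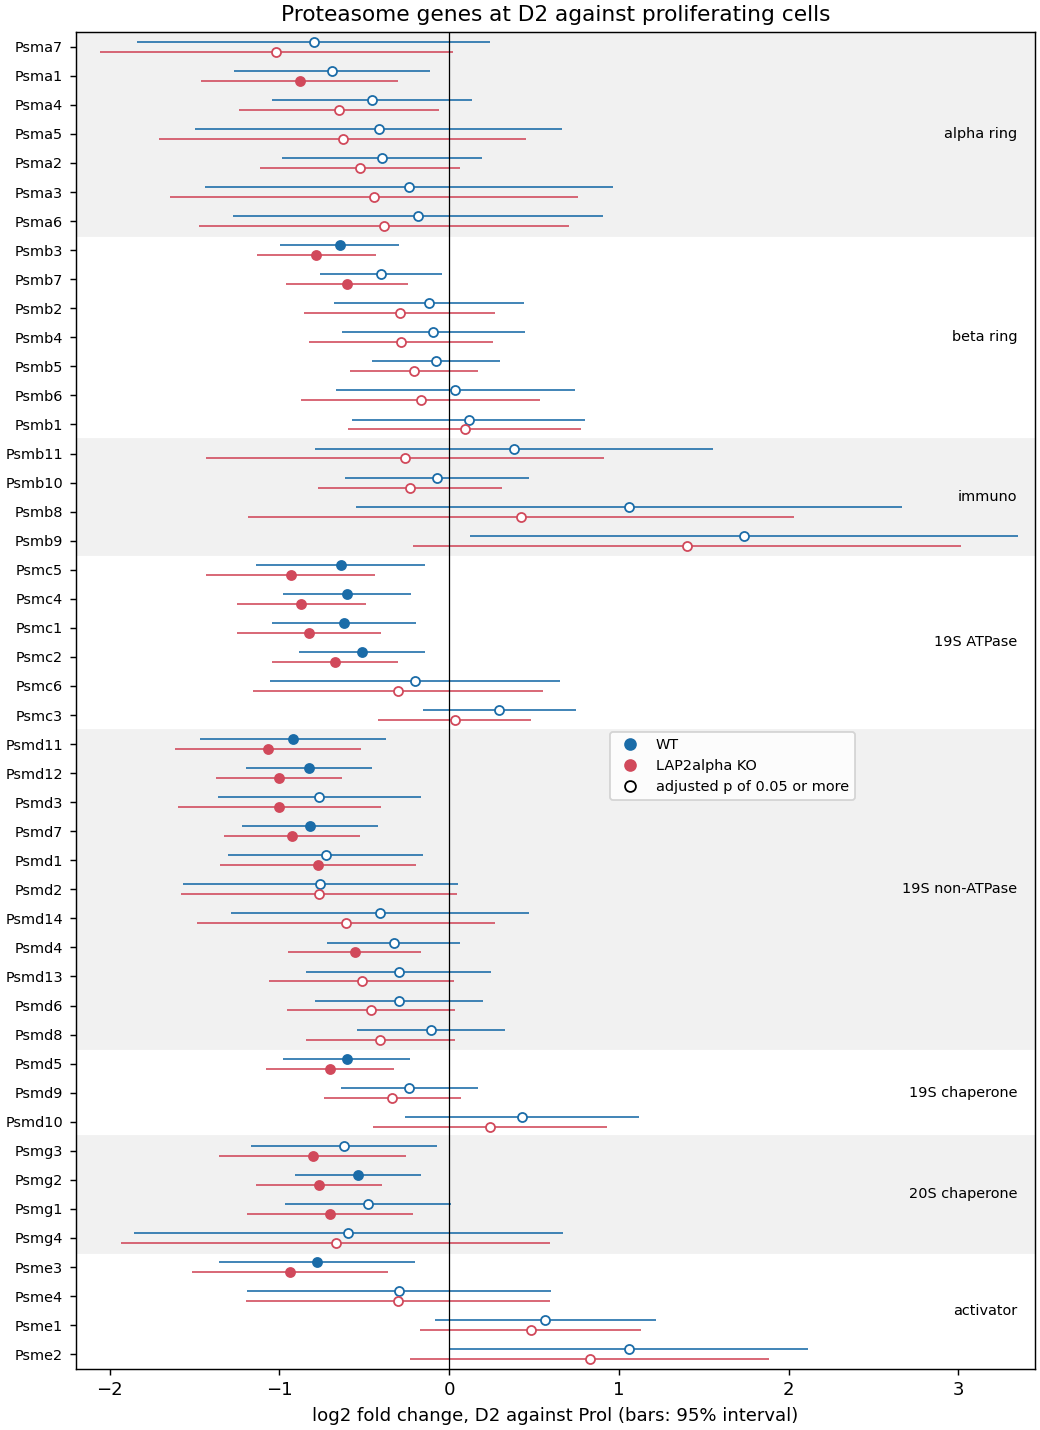
Log2 fold change of D2 against Prol (x axis) with 95% interval (bars) for 46 members, grouped by class, in WT (blue) and KO cells (red). Filled points have an adjusted p under 0.05: these are 11 WT and 18 KO points, all below 0. Psme1, Psme2, Psmb8, Psmd10, Psmc3 and Psmb1 lie above 0 in both genotypes, and none of them was called. Psmb9 is drawn above 0 too, but it passed the low-count filter only through a D2 group, so its position is no support for a difference. Psme2b and Psmc3ip are not drawn.

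No member was called between confluent and proliferating cells. Of the 48 members, 0 were called in WT D0/Prol and 0 in KO D0/Prol, and 0 had an unadjusted p under 0.05 in either. Of all genes, 0.00566% and 0% were called, and 2.17% and 1.12% had an unadjusted p under 0.05. The median of the members was 0.04 in WT and 0.03 in KO cells. Psma1, called lower at D2 in KO but not in WT cells, had 140.5, 214 and 185 CPM in WT Prol and 124, 240.4 and 207 CPM in WT D0.

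Transcript levels per length were compared between classes in proliferating WT cells. The 7 alpha subunits had means of 80.1 CPM per kilobase (Psma2) to 521 (Psma7), with a median of 154, and the 7 constitutive beta subunits had 104 (Psmb5) to 306 (Psmb3), with a median of 244. The 19S ATPases ranged from 88.2 (Psmc4) to 155 CPM per kilobase (Psmc3) and the non-ATPases from 61.2 (Psmd13) to 169 (Psmd14), with medians of 121 and 96.8, and the ranges of the rings and the 19S classes overlapped. These are means of 3 libraries whose log2 ratio of summed 19S to 20S subunits was 0.34, -0.28 and 0.06, so the order of the particles differed between replicates. The assembly chaperones, which leave the finished particle, were at 19.3 to 25.0 CPM per kilobase for those of the 19S and 33.0 to 48.8 for those of the 20S. At D2 the median of the alpha ring was 114 in WT and 96.6 CPM per kilobase in KO cells, and that of the non-ATPases was 72.3 in WT D2 (96.8 in WT Prol) and 60.5 in KO D2 (96.8 in KO Prol). These levels use 1 annotated transcript per gene and inherit its length.

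The alpha subunits form the outer rings and the gate of the barrel. All 7 had lower mean log2 values at D2 than in Prol, by 0.18 to 0.80 in WT and by 0.38 to 1.02 in KO cells, but only Psma1 in KO cells was called (-0.88 ± 0.27, adjusted p = 0.0207). Psma7 had the lowest value of the class: it was at 344, 601 and 483 CPM in WT Prol, 298, 569.8 and 421 CPM in KO Prol, 259, 792 and 544 CPM in WT D0, 274, 806 and 485 CPM in KO D0, 156, 403 and 302 CPM in WT D2 and 119, 269 and 268 CPM in KO D2. WT D2 overlapped WT Prol, the 3 KO D2 libraries lay below the 3 KO Prol libraries, and in each genotype every D2 library lay below the Prol library of its own number. Its log2 fold change was -0.80 ± 0.49, adjusted p = 0.246 in WT and -1.02 ± 0.49, adjusted p = 0.128 in KO cells. With the replicate block the adjusted p of the KO difference was 0.000114, and 6 of the 7 alpha genes were called lower in KO cells in that fit. Psma6 differed least (-0.18 ± 0.51, adjusted p = 0.832 in WT, -0.38 ± 0.51, adjusted p = 0.626 in KO cells); in WT it was above 0 without WT D2 replicate 1 or WT Prol replicate 2.

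The beta subunits form the inner rings, and those of Psmb5, Psmb6 and Psmb7 carry the chymotrypsin-like, caspase-like and trypsin-like sites. Psmb3, a structural subunit, was called lower at D2 in both genotypes, Psmb7 in KO cells, and the other 5 in neither; differences between the genes were not tested. Psmb3 had 228, 239 and 237 CPM in WT Prol and 140.5, 177 and 135 CPM in WT D2, and 220.3, 237 and 219.9 CPM in KO Prol and 117, 135 and 142 CPM in KO D2, without overlap in either genotype. Its log2 fold change was -0.65 ± 0.17, adjusted p = 0.00734 in WT and -0.78 ± 0.17, adjusted p = 0.00184 in KO cells. Psmb7 had 309, 294 and 303 CPM in KO Prol and 205, 189.6 and 203 CPM in KO D2 and fell (-0.60 ± 0.17, adjusted p = 0.0126), while in WT cells it had 349, 298 and 329.8 CPM in Prol and 268, 278 and 200.5 CPM at D2 and was not called (-0.40 ± 0.17, adjusted p = 0.0869).

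Psmb5 and Psmb6 were not called in either genotype. Psmb5 had 93.7, 91.6 and 96.3 CPM in WT Prol and 81.4, 103 and 84.3 CPM in WT D2 (-0.08 ± 0.18, adjusted p = 0.789), and its KO value was -0.21 ± 0.18, adjusted p = 0.418. Psmb6 had 186, 301 and 237 CPM in WT Prol and 179, 339 and 236 CPM in WT D2 (0.04 ± 0.33, adjusted p = 0.951), and its KO value was -0.17 ± 0.33, adjusted p = 0.752. For Psmb1 the values were 0.12 ± 0.32, adjusted p = 0.83 and 0.09 ± 0.32, adjusted p = 0.865. In WT cells 5 of the 7 beta genes had a log2 value below 0, but 2 of 7 with library totals, which turned the class median from -0.09 to 0.07, so the direction of the class as a whole depended on scaling there. In KO cells 6 of 7 were below 0 under both scalings.

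The 6 ATPases form the ring at the base of the 19S particle that unfolds substrates. Psmc1, Psmc2, Psmc4 and Psmc5 were called lower in both genotypes, by 0.52 to 0.64 in WT and by 0.67 to 0.93 in KO cells, and their D2 libraries did not overlap the Prol libraries. Psmc5 had 175, 153 and 179 CPM in WT Prol, 189, 162 and 176 CPM in KO Prol, 159, 165 and 185 CPM in WT D0, 185, 101 and 188 CPM in KO D0, 137, 104 and 89 CPM in WT D2 and 111, 74.2 and 93.5 CPM in KO D2. All 6 D2 libraries lay below the 6 Prol libraries, and KO D0 replicate 2 (101 CPM) lay among the D2 libraries. The fold changes were -0.64 ± 0.23, adjusted p = 0.0498 in WT and -0.93 ± 0.23, adjusted p = 0.00619 in KO cells. Psmc3 and Psmc6 were not called: Psmc3 had 229, 285 and 248 CPM in WT Prol and 269, 370.5 and 300.2 CPM in WT D2 (0.30 ± 0.21, adjusted p = 0.327), and 0.03 ± 0.21, adjusted p = 0.928 in KO cells.

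The non-ATPases make up the lid and the ubiquitin receptors and held the lowest fold changes of the 19S particle. All 11 had values below 0 in both genotypes (10 of 11 in WT with library totals, where Psmd8 was at 0.06), 3 were called in WT and 6 in KO cells, and the class median was -0.73 in WT and -0.77 in KO cells. Psmd11, a scaffold of the lid, had 257, 230.0 and 285 CPM in WT Prol, 289, 243 and 259 CPM in KO Prol, 223, 169 and 244 CPM in WT D0, 271, 177 and 272 CPM in KO D0, 195, 118 and 107 CPM in WT D2 and 170.4, 103 and 113 CPM in KO D2. The 3 D2 libraries lay below the 3 Prol libraries in each genotype, with replicate 1 the highest at D2. Its log2 fold change was -0.92 ± 0.26, adjusted p = 0.0125 in WT and -1.07 ± 0.26, adjusted p = 0.00472 in KO cells.

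Psmd12, another lid subunit, had the smallest adjusted p of the subunits and was picked for that after its values were seen. It had 184, 173 and 196 CPM in WT Prol, 188, 171 and 190.2 CPM in KO Prol, 156, 183 and 206 CPM in WT D0, 176, 139 and 209.8 CPM in KO D0, 111, 111 and 90.4 CPM in WT D2 and 95.5, 82.7 and 96.1 CPM in KO D2. Replicate numbers hardly separated this gene, and the 6 D2 libraries (82.7 to 111 CPM) lay below the other 12 (139 to 209.8 CPM). Its log2 fold change was -0.83 ± 0.17, adjusted p = 0.00189 in WT and -1.003 ± 0.17, adjusted p = 0.000389 in KO cells. The ubiquitin receptor gene Psmd4 and the deubiquitinase gene Psmd14 had values of -0.56 ± 0.18, adjusted p = 0.0301 and -0.61 ± 0.41, adjusted p = 0.294 in KO cells, so that the former was called and the latter was not. Psmd2, the largest subunit of the base together with Psmd1, had 499, 334 and 427 CPM in WT Prol and 392, 187 and 199.9 CPM in WT D2, with overlap. Psmd8 differed least in the class (-0.11 ± 0.21, adjusted p = 0.748 in WT, -0.41 ± 0.21, adjusted p = 0.152 in KO cells).

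Of the chaperones that assemble the base of the 19S particle, Psmd5 was called lower in both genotypes, with 109.6, 103 and 117 CPM in WT Prol and 84.2, 69.6 and 64 CPM in WT D2 (-0.60 ± 0.18, adjusted p = 0.0163), and 110.3, 106 and 111 CPM in KO Prol and 81, 55.8 and 67.2 CPM in KO D2 (-0.70 ± 0.18, adjusted p = 0.00631). Psmd10 (gankyrin) had 25.7, 33.1 and 23.9 CPM in WT Prol and 25.8, 50.1 and 38.7 CPM in WT D2, with overlap, and values of 0.43 ± 0.32, adjusted p = 0.353 in WT and 0.24 ± 0.32, adjusted p = 0.626 in KO cells. The 4 chaperones of the 20S core, which pair up to nucleate the alpha ring, all had values below 0. In WT Psmg2 was called, and in KO cells Psmg1, Psmg2 and Psmg3 were. Psmg3 had 27.8, 33.9 and 30 CPM in KO Prol and 13.1, 20.4 and 19.8 CPM in KO D2 (-0.80 ± 0.26, adjusted p = 0.0255), and -0.62 ± 0.26, adjusted p = 0.0816 in WT cells. Psmg1 had -0.48 ± 0.23, adjusted p = 0.133 in WT and -0.70 ± 0.23, adjusted p = 0.0281 in KO cells. Psmc3ip, which is no proteasome protein, fell further than any subunit, from 23.7, 34.9 and 30.6 CPM in WT Prol to 5.28, 17.8 and 11.7 CPM in WT D2 (-1.51 ± 0.43, adjusted p = 0.0144), and its KO value was -1.98 ± 0.43, adjusted p = 0.00228.

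The activators went in different directions. Psme3 encodes PA28γ, the nuclear activator linked to proliferation, and it was called lower. It had 234, 199 and 260.2 CPM in WT Prol, 248, 204 and 257 CPM in KO Prol, 204, 155 and 241 CPM in WT D0, 234, 158 and 282 CPM in KO D0, 189.7, 114 and 110.5 CPM in WT D2 and 165, 96.1 and 117 CPM in KO D2. The D2 libraries lay below the Prol libraries of their genotype, with fold changes of -0.78 ± 0.27, adjusted p = 0.0396 in WT and -0.94 ± 0.27, adjusted p = 0.0145 in KO cells. Psme4 encodes PA200, and it had 218, 164 and 197 CPM in WT Prol and 252, 111 and 136 CPM in WT D2, with replicate 1 the highest and no call (-0.30 ± 0.42, adjusted p = 0.65 in WT, -0.30 ± 0.42, adjusted p = 0.644 in KO cells).

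Psme1 and Psme2 encode PA28α and PA28β, the pair of the cytoplasmic activator induced by interferon-γ. Psme2 had 37.9, 109.6 and 57.8 CPM in WT Prol, 42.5, 86.4 and 58.6 CPM in KO Prol, 47.2, 158 and 78.7 CPM in WT D0, 58.6, 134 and 71.4 CPM in KO D0, 77.9, 193 and 144 CPM in WT D2 and 67.1, 134 and 134 CPM in KO D2. Within each number the D2 library exceeded the Prol library in both genotypes, but the groups overlapped and the difference was not called (1.06 ± 0.50, adjusted p = 0.123 in WT, 0.83 ± 0.50, adjusted p = 0.23 in KO cells). Criteria close to those of the study were also applied: unadjusted p under 0.05, over 1.5-fold, at least 10 CPM. By them Psme2 in WT cells was the 1 member called higher, beside 14 lower, where 10.8% of all genes were higher and 12.8% lower. The paper states its cutoff on the log2 scale, as 1.5 in either direction, which Psme2 did not reach. The 95% interval of Psme2 was 0.00032 to 2.12. Psme1 had 34.3, 62.1 and 43.5 CPM in WT Prol and 51.9, 83.2 and 69.6 CPM in WT D2 (0.57 ± 0.31, adjusted p = 0.184), and 34.3, 54.8 and 37.9 CPM in KO Prol and 45.6, 67.3 and 62.9 CPM in KO D2 (0.48 ± 0.31, adjusted p = 0.263). With the replicate block, both were called higher in KO cells (adjusted p = 0.000947 for Psme2 and 0.00803 for Psme1). The log2 ratio of Psme2 to Psme3 within a library was -2.63, -0.86 and -2.17 in WT Prol and -1.28, 0.75 and 0.38 in WT D2, and it was -2.55, -1.24 and -2.13 in KO Prol and -1.29, 0.48 and 0.20 in KO D2. Psme2b, a single-exon relative of Psme2 whose reads could be split with it, had at most 0.476 CPM in any library and between 0.015 and 0.336 CPM in the 6 Prol libraries, at or near the limit of 3 counts, and is given no fold change.

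**Figure D4:**
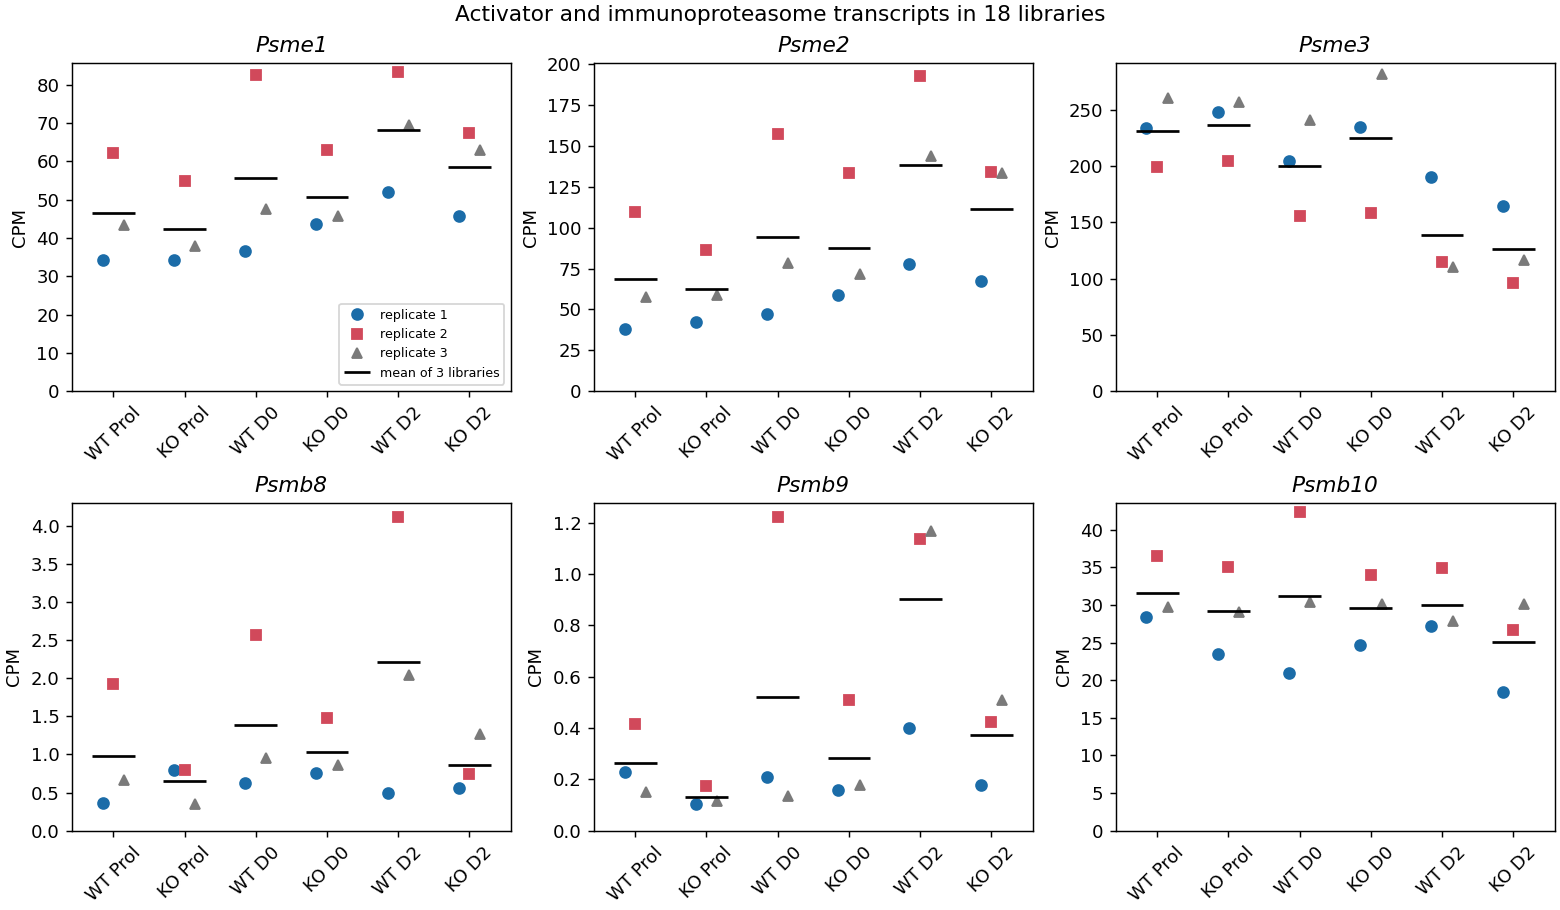
CPM (y axes, from 0) of Psme1, Psme2, Psme3, Psmb8, Psmb9 and Psmb10 in the 18 libraries (points by replicate number) with group means (lines). Psme3 was lower and Psme2 higher at D2 than in Prol within each replicate number, and Psmb8 and Psmb9 stayed below 5 CPM in every library, as against 18.4 to 42.4 CPM for Psmb10.

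The immunoproteasome subunits were nearly absent, apart from Psmb10. Psmb8 (β5i) had 0.36, 1.92 and 0.658 CPM in WT Prol, 0.794, 0.802 and 0.349 CPM in KO Prol, 0.624, 2.56 and 0.958 CPM in WT D0, 0.756, 1.48 and 0.855 CPM in KO D0, 0.491, 4.11 and 2.04 CPM in WT D2 and 0.562, 0.748 and 1.27 CPM in KO D2. In WT the highest library at each state was replicate 2, and neither difference was called (1.06 ± 0.76, adjusted p = 0.326 in WT, 0.42 ± 0.76, adjusted p = 0.724 in KO cells). Psmb9 (β1i) had 0.228, 0.415 and 0.152 CPM in WT Prol and 0.402, 1.14 and 1.17 CPM in WT D2, and 0.105, 0.173 and 0.117 CPM in KO Prol and 0.18, 0.423 and 0.511 CPM in KO D2. At these few counts, the KO D2 libraries lay just above the KO Prol libraries and the WT groups overlapped. Psmb9 entered the test only through a D2 group, the state where it was higher, so its D2/Prol fold changes are not given.

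Psmb10 (β2i) was measured at 28.5, 36.6 and 29.7 CPM in WT Prol, 20.9, 42.4 and 30.4 CPM in WT D0 and 27.2, 35 and 27.9 CPM in WT D2, and at 23.5, 35.1 and 29 CPM in KO Prol, 24.7, 34 and 30.1 CPM in KO D0 and 18.4, 26.7 and 30.1 CPM in KO D2. Its values were -0.07 ± 0.26, adjusted p = 0.867 in WT (0.09 with library totals) and -0.23 ± 0.26, adjusted p = 0.544 in KO cells. Per length, Psmb10 had a mean of 24.1 CPM per kilobase in WT Prol, against 281 for its constitutive counterpart Psmb7, and the log2 ratio of their CPM lay between -3.84 and -2.75 over the 18 libraries. The thymus subunit gene Psmb11 had 0.228 to 1.09 CPM over the 18 libraries, with no order by group (0.38 ± 0.55, adjusted p = 0.656 in WT, -0.26 ± 0.55, adjusted p = 0.769 in KO cells). In the mouse genome (GRCm38), Psmb8 (chromosome 17, 34197721 to 34201454, plus strand) and Psmb9 (chromosome 17, 34181987 to 34187764, minus strand) lie in the major histocompatibility complex, Psme1 (chromosome 14, 55578123 to 55581529, plus strand) and Psme2 (chromosome 14, 55587441 to 55591113, minus strand) lie close together, and Psmb10 lies on chromosome 8 (105935735 to 105938444, minus strand).

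A list of 16 interferon and antigen presentation genes, several of which are induced together with the immunosubunits, was set beside them. Of the 16, 12 exceeded 5 expected counts in each WT Prol library and 11 in each KO Prol library. Of these, 9 of 12 were called higher in WT D2/Prol and 7 of 11 in KO D2/Prol, with 0 lower and medians of 1.18 and 1.08, where 16.6% and 17.1% of all genes were called higher. Ifit1, Ifit3, Irf7 and Nlrc5 entered the test only through D2, where they were higher, and are given no fold change. Ifit1, an antiviral effector, had 0.118, 0.436 and 0.185 CPM in WT Prol and 3.73, 3.84 and 3.88 CPM in WT D2, and its relative Ifit3 had 0.231, 0.173 and 0.0499 CPM in KO Prol and 4.7, 5.62 and 1.78 CPM in KO D2. Tap1, the peptide transporter gene beside Psmb9, had 0.335, 0.401 and 0.299 CPM in WT Prol and 1.28, 1.9 and 1.9 CPM in WT D2 (2.28 ± 0.48, adjusted p = 0.00193) and was named after its values were seen. At the other end of the list, H2-D1 (0.02 ± 0.47, adjusted p = 0.98 in WT) and Erap1 (-0.72 ± 0.38, adjusted p = 0.174 in WT) were not called.

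A second list held 30 genes that serve the proteasome, such as ubiquitin genes, shuttle factors, deubiquitinases and regulators of subunit transcription, of which 29 were tested and Paaf1 was not listed. In WT D2/Prol 1 was called higher and 4 lower (14.1% of all genes were called lower, a share the list did not exceed), in KO D2/Prol 1 higher and 7 lower (15.2%), and the list medians were -0.44 and -0.40. Uchl5, a deubiquitinase of the 19S particle, had 91.4, 103 and 103 CPM in WT Prol and 24.5, 30.7 and 25.5 CPM in WT D2 (-1.88 ± 0.18, adjusted p = 1.59e-06), and the KO change was -1.56 ± 0.18, adjusted p = 8.45e-06. Ubqln4, a ubiquitin shuttle, had 184, 169 and 197 CPM in KO Prol and 88.4, 59.7 and 69.3 CPM in KO D2 (-1.36 ± 0.21, adjusted p = 0.000168). The gene called higher was Ngly1, whose product de-glycosylates and so activates the transcription factor NRF1 that drives subunit genes, with 10.3, 9.23 and 8.76 CPM in WT Prol and 16.3, 18.2 and 20.1 CPM in WT D2 (0.95 ± 0.20, adjusted p = 0.00196). Nfe2l1, which encodes NRF1, had 219.8, 177 and 209 CPM in WT Prol and 481, 191 and 222 CPM in WT D2 and was not called (0.44 ± 0.43, adjusted p = 0.485).

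LAP2α knockout gave no called difference in a member in any state. For KO/WT in Prol, D0 and D2 and for the difference between the D2 and Prol contrasts, 0 of 48 members had an adjusted p under 0.05 and 0 had an unadjusted p under 0.05. Of all genes, 0.00566% were called in Prol, 0% at D0, 0% at D2 and 0% in the difference, and 1.11%, 1.47%, 1.96% and 0.945% had an unadjusted p under 0.05. The lack of calls was thus shared by nearly all genes in this fit and is no trait of the members. The paper, with a p-value cutoff and the lane as a block, does report KO/WT genes at D2. Criteria close to those of the study gave 37 genes higher and 45 lower at D2 here, with 0 members among them. At D2, 46 of the 48 members had a value below 0, with a median of -0.21, whereas 52.2% of all genes were below 0, with a median of -0.01. Of the genes with a mean of at least 10 CPM, 55.5% were below 0, with a median of -0.02. Members moved together between libraries, so they are not separate observations. The median KO/WT value was -0.04 in Prol and -0.05 at D0, with 33 of the 48 members below 0 in each (49.5% and 46.6% of all genes). Of the genes with a mean of at least 10 CPM, 47.4% and 37.9% were below 0. In Prol all 14 subunits of both rings were below 0, with a median of -0.07, and the KO sum differed from that of the same-numbered WT library by -4.09%, -8.89% and -6.45% for the alpha ring and by -5.61%, -5.16% and -5.65% for the beta ring. At D0 the ring sums did not share a sign over the 3 numbers. The 3 KO D2 libraries lay below the 3 WT D2 libraries for 1 member, Psmd8, where 3.81% of all genes did so. With the replicate block, 7 members had an unadjusted p under 0.05 at D2, where 5.23% of all genes did, and 0 were called. The KO D2 libraries also had lower sums of the differentiation genes than the WT D2 libraries (1401 to 1755 against 2357 to 4793 CPM). The part of that difference in the KO/WT values at D2 was not tested.

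The KO sums at D2 were below those of WT in replicates 1 and 2 for all 7 classes summed (immunosubunits left out), and in replicate 3 for the alpha ring and the activators. At D2 the summed alpha ring of KO cells differed from that of the same-numbered WT library by -19.7% in replicate 1, by -26.4% in replicate 2 and by -7.56% in replicate 3. For the beta ring, the differences were -17.7%, -24.6% and 0.394%, and for the non-ATPases they were -14.4%, -17.4% and 7.73%. The class medians of the fitted differences were -0.26 for the alpha ring, -0.22 for the beta ring, -0.22 for the ATPases and -0.15 for the non-ATPases. By the smallest unadjusted p, Psmb7 led at D2 (268, 278 and 200.5 CPM in WT, 205, 189.6 and 203 CPM in KO), with -0.31 (95% interval -0.67 to 0.05). Psmb9 led in Prol with -0.92 (95% interval -2.54 to 0.69), and Psmb11 at D0 with -0.77 (95% interval -1.95 to 0.40), and neither exceeded 1.22 CPM in a library. Psme2b led in the difference between contrasts and is too low to compare. The intervals at D2 were wide for the subunits that moved with replicate number (-0.38 (95% interval -1.42 to 0.66) for Psma7) and narrower for others (-0.19 (95% interval -0.55 to 0.18) for Psmd12).

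**Figure D5:**
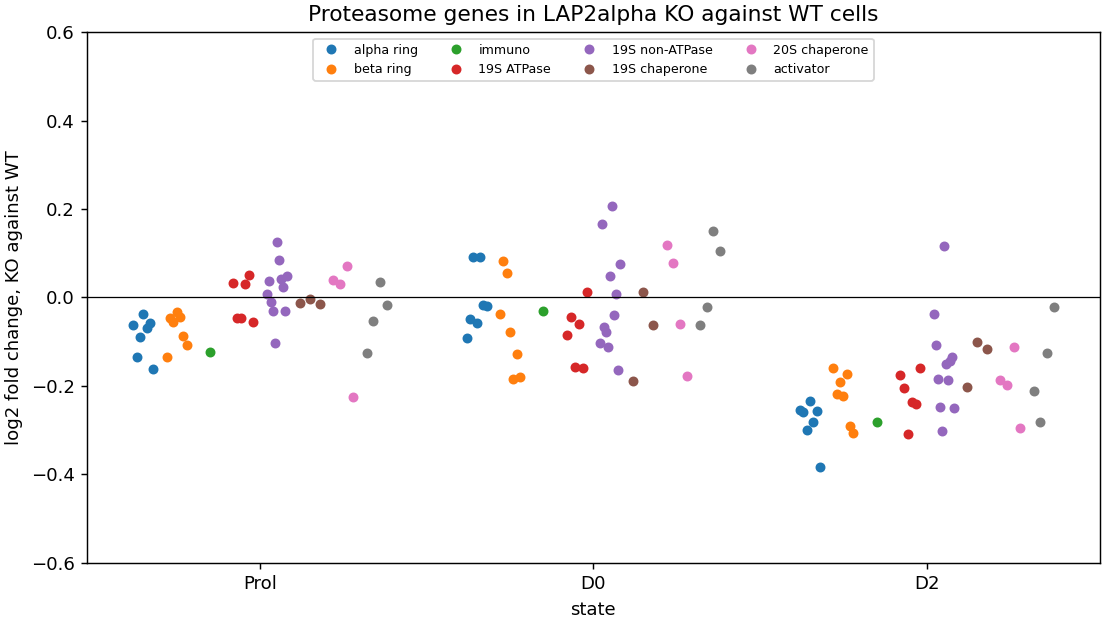
Log2 fold change of KO against WT (y axis) in Prol, D0 and D2 (x axis) for 43 members, coloured by class. Psme2b, Psmb8, Psmb9 and Psmb11, all below 5 CPM, and Psmc3ip are not drawn, and no point has an adjusted p under 0.05. At D2, 42 of the 43 points lie below 0, the exception being Psmd2 at 0.12.

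The sequences before the start sites of 6 genes are shown for the genes that fell in both genotypes (Psmb3, Psmd11, Psmd12 and Psme3), for a catalytic subunit with little difference (Psmb6) and for the activator subunit with values above 0 (Psme2). They are the bases of the 250 before the RefSeq start (GRCm38.p6) that lie outside any GENCODE M21 exon, read 5′ to 3′ on the gene's strand, with matches to the motifs named below in capitals. They are chr11:97703184-97703398 (+) for Psmb3, chr11:70525107-70525356 (+) for Psmb6, chr11:80428365-80428614 (+) for Psmd11, chr11:107479278-107479483 (+) for Psmd12, chr14:55591114-55591351 (-) for Psme2 and chr11:101315963-101316212 (+) for Psme3.
Psmb3: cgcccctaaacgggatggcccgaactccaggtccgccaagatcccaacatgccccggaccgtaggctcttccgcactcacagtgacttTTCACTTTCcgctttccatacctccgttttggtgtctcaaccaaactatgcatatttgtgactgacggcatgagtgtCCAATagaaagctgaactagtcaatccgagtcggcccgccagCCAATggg
Psmb6: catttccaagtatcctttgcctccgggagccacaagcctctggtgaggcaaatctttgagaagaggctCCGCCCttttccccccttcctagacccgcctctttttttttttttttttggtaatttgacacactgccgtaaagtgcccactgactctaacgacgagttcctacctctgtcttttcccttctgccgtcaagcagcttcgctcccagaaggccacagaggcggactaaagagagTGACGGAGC
Psmd11: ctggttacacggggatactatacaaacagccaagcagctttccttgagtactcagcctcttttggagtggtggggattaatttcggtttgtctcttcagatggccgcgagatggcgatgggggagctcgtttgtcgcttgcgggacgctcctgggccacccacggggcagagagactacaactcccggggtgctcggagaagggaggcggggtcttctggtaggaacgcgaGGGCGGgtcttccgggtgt
Psmd12: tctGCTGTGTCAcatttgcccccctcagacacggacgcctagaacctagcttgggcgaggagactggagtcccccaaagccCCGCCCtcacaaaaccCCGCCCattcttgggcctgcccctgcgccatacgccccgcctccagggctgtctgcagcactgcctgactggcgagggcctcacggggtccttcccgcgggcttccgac
Psme2: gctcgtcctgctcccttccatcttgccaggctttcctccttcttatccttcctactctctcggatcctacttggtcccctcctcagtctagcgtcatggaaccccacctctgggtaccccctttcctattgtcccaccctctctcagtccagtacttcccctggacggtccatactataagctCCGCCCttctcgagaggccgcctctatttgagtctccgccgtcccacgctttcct
Psme3: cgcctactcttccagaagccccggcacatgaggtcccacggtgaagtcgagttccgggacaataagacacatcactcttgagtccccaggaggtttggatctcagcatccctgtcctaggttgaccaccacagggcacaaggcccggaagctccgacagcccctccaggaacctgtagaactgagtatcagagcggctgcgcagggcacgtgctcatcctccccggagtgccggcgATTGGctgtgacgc

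The motifs, searched on both strands in the 250 bases before each RefSeq start, were TGACNNNGC (the core of the antioxidant response element, which NRF1 and NRF2 bind), CCAAT (bound by NF-Y), GGGCGG (the GC box, bound by Sp1), GAAANNGAA (the core of the interferon-stimulated response element) and TTCNNNGAA (the core of the gamma-activated site). Of the 48 members, 41 had a promoter in the table, with 44 start sites. TGACNNNGC was in 5 of 44 (Psmb5, Psmb6, Psmc6, Psmd9 and Psmd12), or 11.4%, against 10.2% of all 32851 promoters. CCAAT was in 15 of 44, or 34.1%, against 33.8%, and GGGCGG was in 23 of 44, or 52.3%, against 32.7%. GAAANNGAA was in 3 of 44 (Psmb3, Psmd4 and Psmd9), or 6.82%, against 7.13%, and TTCNNNGAA was in 2 of 44 (Psmb8 and Psmg1), or 4.55%, against 7.02%. Psmb3 and Psmd12, both lower at D2, shared none of the motifs, since Psmb3 held 2 CCAAT boxes and a GAAANNGAA match and Psmd12 held 2 GC boxes and TGACNNNGC, which Psmb6 held too. A match is a description of the letters in this window and not a binding site.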

How the data were processed

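Poly(A) RNA of 18 myoblast libraries (3 of each of 6 groups) was sequenced as single-end reads with a kit that keeps strand. Per the study's methods, the authors trimmed adapters with cutadapt, aligned reads to the mouse transcriptome (GRCm38), estimated counts per gene with RSEM, filtered low counts and scaled the libraries with edgeR's TMM factors. The deposited values are CPM written with decimal commas, entered here as a score because TMM scaling makes 12 of the 18 columns sum to more than CPM allows. The authors' estimated counts were recovered from them with 0.5 added counts, and the depth was 26437823 to 41619016 per library. Reads that fit several genes were apportioned by RSEM, so Psme2 and Psme2b are uncertain.

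Log2 values were fitted with limma 3.58.1 (R 4.3.3; trended variance, 1 mean for each of the 6 groups, all 18 libraries), and p-values were adjusted by the Benjamini-Hochberg method over the 17672 genes that exceeded 5 expected counts in each of the 3 libraries of at least 1 group. Calls have an adjusted p under 0.05 and all tests were two-sided. The comparisons were D2/Prol, D2/D0 and D0/Prol within a genotype, KO/WT within a state, and the difference of the KO/WT contrasts at D2 and Prol, 10 in all. The fit was tested on simulated data for WT D2/Prol. It recovered 41 of 100 changes of 2-fold and 83 of 100 of 4-fold, with 3 false calls. In the simulation only these genes differed, all with a mean above 10 CPM, whereas the real WT D2/Prol fit called 2484 genes lower and 2940 higher. The adjusted p depends on the share of genes that differ. These rates therefore do not carry over to the real comparisons, KO/WT included. Differences of 2-fold or less could be missed, at a rate not known from the simulation. The authors used the sequencing lane as a block. No label gives the lane here, so it was left out and the replicate number was tried as a block in its place. Same-numbered libraries correlated at over 0.1 in 40 of 45 pairs (range -0.04 to 0.65). Both KO comparisons with D2, D0/Prol and KO/WT passed in all 3 pairs, and WT D2/Prol (lowest 0.04) and WT D2/D0 (lowest 0.01) did not.

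Symbols, coordinates and lengths (the longest principal transcript) came from GENCODE M21, and 19072 of 19153 identifiers matched. The single genes described are those of the immunoproteasome and activator classes, the 3 catalytic beta genes, the genes with the highest and lowest mean D2/Prol value of each other class, and the gene with the smallest p for each genotype contrast. Others were named after their values were seen. Members and lists were chosen with earlier results of these data known.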

Additional observations from a re-analysis of the deposited data

How the results depend on the processing

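The counts of called members depended on how replicate number was treated and on scaling. With a replicate block, 28 members were called in WT D2/Prol (25 lower, and Psmb9, Psme1 and Psme2 higher), 34 in KO D2/Prol, 29 in WT D2/D0 (27 lower) and 35 in KO D2/D0, against 12, 19, 5 and 17, and all members called without the block were among them. Psmb9 passed the low-count filter only through a D2 group, so its call is no support for a rise. When voom weights were combined with a random effect of replicate number on all listed genes, chosen after seeing the data, the counts were 24, 30, 22 and 31. Library totals gave 6 in WT D2/Prol, and a minimum of 10 CPM in a library gave 9 in WT D2/D0. Criteria close to the study's (unadjusted p under 0.05, over 1.5-fold, at least 10 CPM) gave 10 in WT D2/D0. The paper states a log2 cutoff of 1.5 in place of 1.5-fold. With only the groups compared in the fit, which has fewer residual degrees of freedom, the counts were 7 in WT D2/Prol, 0 in WT D2/D0 and 3 in KO D2/D0. Leaving out 1 library gave 4 to 14 (WT D2/Prol), 13 to 17 (KO D2/Prol), 3 to 15 (WT D2/D0) and 6 to 17 (KO D2/D0). The remaining settings (voom weights, median-of-ratios scaling, no filter, a pseudocount of 1 CPM) stayed within 1.5 times of these counts. For D0/Prol, KO/WT and the difference of contrasts, 0 members were called under every setting, the block included. The sign turned with library totals for Psmb10 (0.089), Psmb5 (0.084) and Psmd8 (0.055) in WT D2/Prol. Without single libraries it turned in WT D2/Prol for Psma6 (-0.47 to 0.19), Psmb1 (-0.088 to 0.32), Psmb6 (-0.20 to 0.26), Psmb10 (-0.19 to 0.037) and Psmb11 (-0.056 to 0.89), and in KO D2/Prol for Psmb1 (-0.070 to 0.31), Psmb6 (-0.31 to 0.047) and Psmc3 (-0.094 to 0.15), none of which was called. The cause of these changes was not tested. Depth limits Psmb8, Psmb9, Psmb11 and Psme2b, each below 5 CPM in every library.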
